A study of Mus musculus with 11 samples.

Results

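The ion and water transport genes described here are 10 genes given by symbol: Slc12a2, Aqp3, Aqp5, Scnn1a, Scnn1b, Scnn1g, Cftr, Kcnn4, Atp1b1 and Atp2b2. The rule that groups them names epithelial transport roles and uses no measured value, but the members were chosen with earlier results of these data known. Each was found once by its Entrez identifier among the 27179 genes counted in every library. The set carries the name luminal, but only 7 of the 10 were called higher in at least 1 luminal population than in basal cells. Among them, Atp2b2 passed the expression filter only through luminal progenitor and mammosphere libraries. Of all genes tested, 28.0% were called higher in luminal progenitor cells and 29.7% higher in mature luminal cells than in basal cells. Scnn1g, Aqp3 and Cftr were not called higher in either luminal population.

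Mammary secretions are set by transport across the luminal epithelium. Sodium, potassium and chloride are brought in across the basolateral membrane by the cotransporter NKCC1, the sodium gradient is kept by the Na,K-ATPase, and apical channels such as CFTR and the epithelial sodium channel ENaC let chloride out or sodium in, with water following through aquaporins. Myoepithelial cells of the basal layer contract to expel milk and do not face the lumen.

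RNA-seq data were collected from 11 libraries of mouse mammary epithelium. Freshly sorted, lineage-negative cells of wild-type virgin female FVB/N mice aged 8 weeks gave 3 libraries each of basal cells enriched for stem cells by the gate CD24+CD29hi (MaSC/basal), of cells enriched for luminal progenitors by CD24+CD29loCD61+ (LP) and of cells enriched for mature luminal cells by CD24+CD29loCD61- (ML). A single library came from mammospheres, which are spheres grown without attachment for 1 week from sorted MaSC/basal cells of the same strain, age and genotype, in a medium with EGF, bFGF, insulin, hydrocortisone and B27. Another single library came from CommaD-βGeo (Comma Dβ), an established line from the mammary gland of a Balb/c mouse in mid-pregnancy, whose label also reads wild type. LP and ML replicates 1, 2 and 3 belong to library batches 1, 2 and 3, MaSC/basal replicate 1 belongs to batch 1, and MaSC/basal replicates 2 and 3 both belong to batch 2. The labels do not say how many mice went into a library. The title of MaSC/basal replicate 1 names another gene although its label reads wild type, and without it no member's call changed except that of Scnn1g, then called lower in ML than in MaSC/basal cells (-1.18, adjusted p = 0.0478). The name of the mammosphere library may join 2 cultures. No member was used in the sort, which selected on CD24, CD29 and CD61.

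Library totals ran from 19958838 to 75795034 reads assigned to genes, so that 3 reads were worth between 0.0399 and 0.160 CPM (read counts scaled to library size, with TMM factors from the trimmed mean of M values). All 6 basal markers summed to between 13523 and 18439.7 CPM in MaSC/basal cells and to between 64.8 and 334 CPM in the luminal libraries, and the 5 luminal keratin and adhesion markers to between 12763 and 16399 CPM in luminal cells and between 1402 and 1692 CPM in MaSC/basal cells. The 6 LP markers, which include the CD61 gene used in the sort, reached 2255 to 2805 CPM in LP, but ML replicate 2 held 1353 CPM of them, against 668 and 485 CPM in ML replicates 1 and 3. Its 5 milk genes summed to 3858 CPM against 995 and 608 CPM, and its 6 ML markers to 3783 CPM against 5443 and 6179 CPM. Immune, endothelial, adipocyte and erythroid marker lists each summed to at most 73.5 CPM in any library, and the 5 fibroblast markers to between 187 and 768 CPM in the sorted ones.

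**Figure D1:**
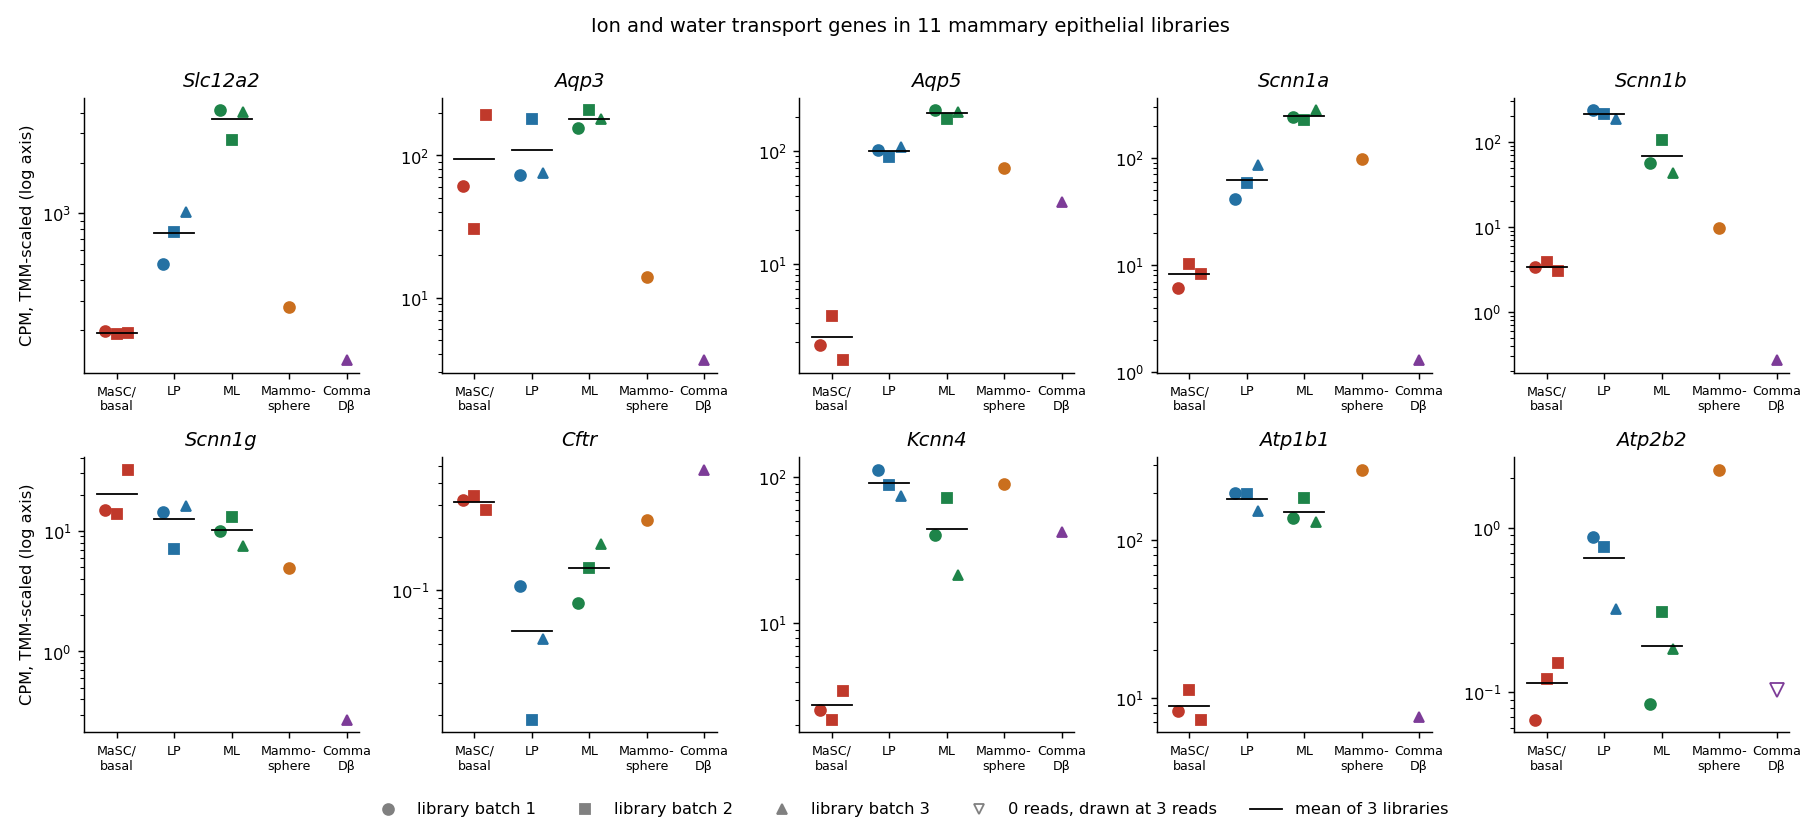
CPM (TMM-scaled, log axis, with a scale of its own in each panel) of the 10 genes in each of the 11 libraries, by sample type. The symbol gives the library batch, the bar the mean of 3 libraries, and the open triangle the library with 0 Atp2b2 reads, drawn at the level 3 reads would give. LP and ML points lie above all MaSC/basal points for Slc12a2, Aqp5, Scnn1a, Scnn1b, Kcnn4 and Atp1b1.

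The comparison of sorted populations was led by genes higher in both luminal populations. Slc12a2, Aqp5, Scnn1a, Scnn1b, Kcnn4 and Atp1b1 were each higher in LP and in ML than in MaSC/basal cells, by 3.92- to 61.8-fold and by 16.3- to 96.3-fold. In LP cells, 7 of the 9 members that could be tested rose over MaSC/basal cells and 0 fell (edgeR quasi-likelihood test, adjusted p under 0.05 over all 15422 genes tested), where 28.0% of all genes were called higher in LP and 29.4% higher in MaSC/basal cells. In ML cells 6 of 9 rose and 0 fell, where 29.7% of all genes were called higher in ML and 28.9% higher in MaSC/basal cells. Both comparisons use the same 3 MaSC/basal libraries and are not independent. Between the luminal populations, 2 members (Scnn1b and Atp2b2) were higher in LP and 3 (Slc12a2, Aqp5 and Scnn1a) were higher in ML, where 14.3% of all genes were called higher in LP and 17.5% higher in ML. The median log2 fold change of the 9 tested members was 2.91 for LP over MaSC/basal, 4.09 for ML over MaSC/basal and 0.27 for LP over ML, beside 0.0079, 0.0058 and -0.01 over all genes tested. Cftr did not pass the expression filter, and Atp2b2 passed it through LP replicates 1 and 2 and the mammosphere library alone, so that its LP difference was favoured by the filter. Scaling without TMM factors put the median log2 fold change of all genes at -0.14 (LP over MaSC/basal) and -0.19 (LP over ML). It split all calls between LP and ML into 1581 higher in LP and 3798 higher in ML, in place of 2204 and 2695, but left the numbers of members called unchanged. These are bulk samples, in which fewer cells of a type and less RNA per cell cannot be told apart.

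**Figure D2:**
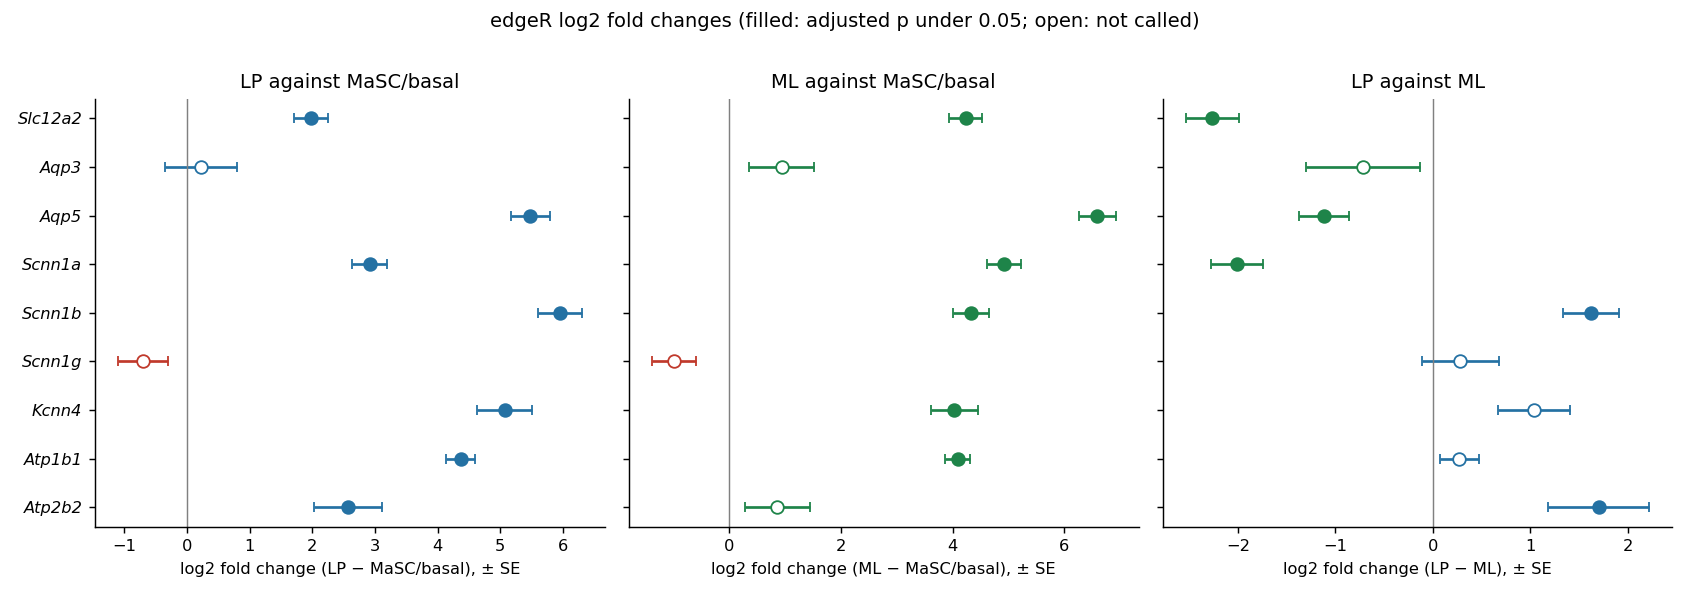
Log2 fold changes with their SE from the edgeR fit for the 9 members tested, in LP against MaSC/basal, ML against MaSC/basal and LP against ML. Filled points were called (adjusted p under 0.05) and the colour gives the population that was higher. Aqp3 and Scnn1g are open in all 3 panels, and Slc12a2, Aqp5 and Scnn1a lie on the ML side of the right-hand panel while Scnn1b and Atp2b2 lie on the LP side.

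Slc12a2 encodes NKCC1, the basolateral sodium-potassium-chloride cotransporter that loads secretory cells with chloride. Its level was 198, 189 and 193 CPM in the 3 MaSC/basal libraries, 496, 770.4 and 1009.9 CPM in the 3 LP libraries, and 4132, 2746 and 4029 CPM in the 3 ML libraries. The 3 populations did not overlap, with ML highest, and the LP libraries spread most widely in proportion. Slc12a2 rose in LP by 1.97 ± 0.27 (SE) on the log2 scale (adjusted p = 1.49e-04) and in ML by 4.23 ± 0.30 (adjusted p = 1.61e-06), and it was 4.79-fold higher in ML than in LP (adjusted p = 8.58e-04). ML markers followed the same order within LP, at 657, 1093 and 1615 CPM in replicates 1, 2 and 3, and ML replicate 2, the lowest ML library for Slc12a2, was also the lowest for ML markers. The part of the markers' cells in these values was not tested. The mammosphere library, at 274 CPM, and the Comma Dβ library, at 132 CPM, lay above and below the MaSC/basal range.

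Aqp5 and Aqp3 encode water channels. AQP5 is an apical channel of secretory glands, and AQP3 is a basolateral channel that also passes glycerol. Their promoters are shown because the genes of the same family gave the widest difference (Aqp5 in ML) and the narrowest (Aqp3 in LP) over MaSC/basal cells. RefSeq sequence of GRCm38.p6 for the 250 bases before each gene's start is given 5′ to 3′ on the gene's strand, at chr15:99590778-99591027 (plus strand) for Aqp5 and chr4:41098184-41098433 (minus strand) for Aqp3. Capitals mark matches, on either strand, to any of 5 motifs. The letters searched were TATAAA for the TATA box, CCAAT for the box of that name, GGGCGG (or CCGCCC on the other strand) for the GC box, AGATAA for the GATA motif and AGAACA for a steroid receptor motif. No matches overlapped.
Aqp5: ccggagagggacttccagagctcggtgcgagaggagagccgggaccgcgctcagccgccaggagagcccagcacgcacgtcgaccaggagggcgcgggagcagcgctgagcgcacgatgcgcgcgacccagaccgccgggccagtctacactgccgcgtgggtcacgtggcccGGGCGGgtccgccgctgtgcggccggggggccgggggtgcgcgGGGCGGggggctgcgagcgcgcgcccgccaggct
Aqp3: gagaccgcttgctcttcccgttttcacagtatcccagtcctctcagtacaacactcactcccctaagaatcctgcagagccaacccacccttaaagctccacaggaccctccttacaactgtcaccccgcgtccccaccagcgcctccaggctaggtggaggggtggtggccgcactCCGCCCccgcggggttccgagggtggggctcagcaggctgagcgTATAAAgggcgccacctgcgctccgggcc
The Aqp5 window held 2 GC boxes and no match to the other letters, with 78.4% G and C. The Aqp3 window held 1 GC box and 1 TATA box, with 64% G and C. Among 32851 promoter windows of the same length in the table, 32.7% held a GC box, 12.4% a TATA box, 33.8% a CCAAT box, 9.99% the GATA motif and 16.1% the steroid receptor motif, and the median G and C content was 52.4%. A match is only a run of letters.

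Aqp5 had the largest difference between luminal and MaSC/basal cells among the members in ML. It was at 1.90, 3.45 and 1.39 CPM in MaSC/basal cells, at 102, 89.0 and 109 CPM in LP cells, and at 230.4, 194 and 224 CPM in ML cells. The order MaSC/basal, LP, ML held without overlap in all 9 sorted libraries. The log2 fold change was 5.48 ± 0.31 in LP (44.5-fold, adjusted p = 6.05e-07) and 6.59 ± 0.33 in ML (96.3-fold, adjusted p = 2.55e-07) over MaSC/basal cells. ML exceeded LP by 2.16-fold (adjusted p = 0.00944). Aqp5 was also high in both cultures, with 70.2 CPM for mammospheres and 35.1 CPM for the Comma Dβ line, below every LP library and above every MaSC/basal library.

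Aqp3 did not follow Aqp5. Its MaSC/basal libraries gave 60.9, 30.3 and 192 CPM, its LP libraries 73.2, 182 and 75.4 CPM, and its ML libraries 156, 208 and 179 CPM. All 3 populations overlapped, through MaSC/basal replicate 3 and LP replicate 2, which belong to the same library batch. The log2 fold change was 0.22 ± 0.58 for LP (adjusted p = 0.764) and 0.94 ± 0.58 for ML (adjusted p = 0.192) over MaSC/basal cells, and -0.72 for LP over ML (adjusted p = 0.376). A single library decided this: without MaSC/basal replicate 3, Aqp3 was called higher in LP (1.26, adjusted p = 0.0440) and in ML (1.97, adjusted p = 0.00704), while over all alternatives the adjusted p ran from 0.0440 to 0.980 in LP and from 0.00704 to 0.443 in ML. That library also held 73.5 CPM of the 3 endothelial markers against 41.7 and 35 CPM in MaSC/basal replicates 1 and 2, and the part of such cells was not tested. Aqp3 was low in the cultures, at 14 CPM in mammospheres (6.72-fold under the MaSC/basal mean) and 3.64 CPM in Comma Dβ cells (25.9-fold under it).

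Per kilobase of exon, as RPKM from the same scaled counts, Aqp3 made up 60.6% ± 16.3 (SD, n = 3) of the sum of Aqp1, Aqp3, Aqp5 and Aqp9 in MaSC/basal cells, with Aqp1 at 26%, Aqp9 at 10.6% and Aqp5 at 2.83% ± 2.60. Aqp5 took 48.5% ± 12.8 of the sum in LP and 55.5% ± 6.64 in ML, beside 43.3% ± 14.9 and 40.7% ± 4.77 for Aqp3. In LP the shares of both overlapped, whereas in ML every library held more Aqp5 than Aqp3, and MaSC/basal cells held little Aqp5. In mammospheres the share of Aqp5 was 78.1%.

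Scnn1a, Scnn1b and Scnn1g encode the alpha, beta and gamma subunits of ENaC, the apical channel through which epithelia take sodium back from the lumen. Scnn1g and Scnn1b are neighbours on chromosome 7, on the same strand, with 96555 bases between the end of Scnn1g (121734420 to 121768482) and the start of Scnn1b (121865038 to 121918728), whereas Scnn1a lies on chromosome 6 (125314271 to 125344943). The promoters of the neighbours are shown because the values of the genes differed so widely, at chr7:121864788-121865037 for Scnn1b and, for the 191 bases outside the gene's span, chr7:121734229-121734419 for Scnn1g, both on the plus strand and with the same marks as above.
Scnn1b: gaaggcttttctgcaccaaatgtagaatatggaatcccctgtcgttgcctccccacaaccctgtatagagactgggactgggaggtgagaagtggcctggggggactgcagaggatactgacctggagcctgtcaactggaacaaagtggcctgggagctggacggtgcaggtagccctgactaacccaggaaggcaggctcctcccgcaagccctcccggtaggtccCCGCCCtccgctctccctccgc
Scnn1g: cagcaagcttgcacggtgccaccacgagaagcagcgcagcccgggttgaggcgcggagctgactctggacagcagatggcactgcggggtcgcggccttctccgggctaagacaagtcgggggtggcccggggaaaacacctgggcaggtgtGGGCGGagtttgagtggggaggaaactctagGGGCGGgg
The Scnn1b window held 1 GC box and the Scnn1g window 2, and neither held any of the other 4 motifs. Their G and C contents were 60.8% and 67.0%.

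Scnn1a was graded as Slc12a2 was. It stood at 6.13, 10.2 and 8.16 CPM in MaSC/basal cells, at 41.1, 58.7 and 85 CPM in LP cells and at 238, 226 and 279 CPM in ML cells. No library of one population reached the range of another. Scnn1a rose by 2.91 ± 0.28 in LP (adjusted p = 1.29e-05) and by 4.92 ± 0.30 in ML (adjusted p = 7.28e-07) on the log2 scale, and ML exceeded LP by 4.02-fold (adjusted p = 0.00105). Within LP, the library order was that of the summed ML markers given for Slc12a2.

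Scnn1b had the opposite luminal order. It stood at 3.36, 3.87 and 3.05 CPM in MaSC/basal cells, at 236, 215 and 184 CPM in LP cells, and at 56.4, 106 and 43.1 CPM in ML cells. Every LP library was above every ML library, and among the ML libraries replicate 2, which held the most LP markers, was highest. The rise was 5.95 ± 0.35 in LP (61.8-fold, adjusted p = 7.18e-07) and 4.32 ± 0.33 in ML (adjusted p = 2.39e-06) on the log2 scale over MaSC/basal cells. LP exceeded ML by 1.63 ± 0.29 (3.09-fold, adjusted p = 0.00300), and by 2.08 without ML replicate 2.

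Scnn1g was the one ENaC subunit that was not higher in luminal cells. Its values were 14.8, 13.7 and 32.1 CPM in MaSC/basal cells, 14.3, 7.08 and 16 CPM in LP cells, and 9.96, 13 and 7.43 CPM in ML cells. MaSC/basal cells overlapped LP but not ML, and MaSC/basal replicate 3 was again highest, as for Aqp3. The log2 fold change over MaSC/basal cells was -0.70 ± 0.40 in LP (adjusted p = 0.154) and -0.99 ± 0.40 in ML (adjusted p = 0.0540), which falls just short of the threshold. The ML difference was called lower by the DESeq2 Wald test (-1.01, adjusted p = 0.0235) and when the 9 sorted libraries were fitted alone (-1.04, adjusted p = 0.0457), but was -0.49 without MaSC/basal replicate 3, and the adjusted p ran from 0.0235 to 0.265 over all alternatives. LP and ML differed by 0.28 ± 0.40 (adjusted p = 0.621).

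Each sorted population had a different leading ENaC transcript. Of the RPKM summed over the 3 subunits, Scnn1g made up 62.3% ± 12.3 (SD, n = 3) in MaSC/basal cells, Scnn1b 80.0% ± 7.05 in LP cells and Scnn1a 69.5% ± 11.4 in ML cells. These leading shares did not overlap with those of the other subunits in the same population: the lowest was 50.5% for Scnn1g in MaSC/basal cells, 72.0% for Scnn1b in LP and 57.2% for Scnn1a in ML. Scnn1g was the smallest part in both luminal populations, at 3.83% ± 1.48 and 3.31% ± 0.72. Mammospheres were led by Scnn1a (83.2%), as were the few ENaC reads of Comma Dβ cells (64.3%, from 38 Scnn1a, 8 Scnn1b and 8 Scnn1g reads). The summed level also differed, with mean RPKM of 2.33, 1.42 and 6.80 for Scnn1a, Scnn1b and Scnn1g in MaSC/basal cells against 17.6, 88.0 and 4.20 in LP and 70.7, 28.4 and 3.42 in ML.

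**Figure D3:**
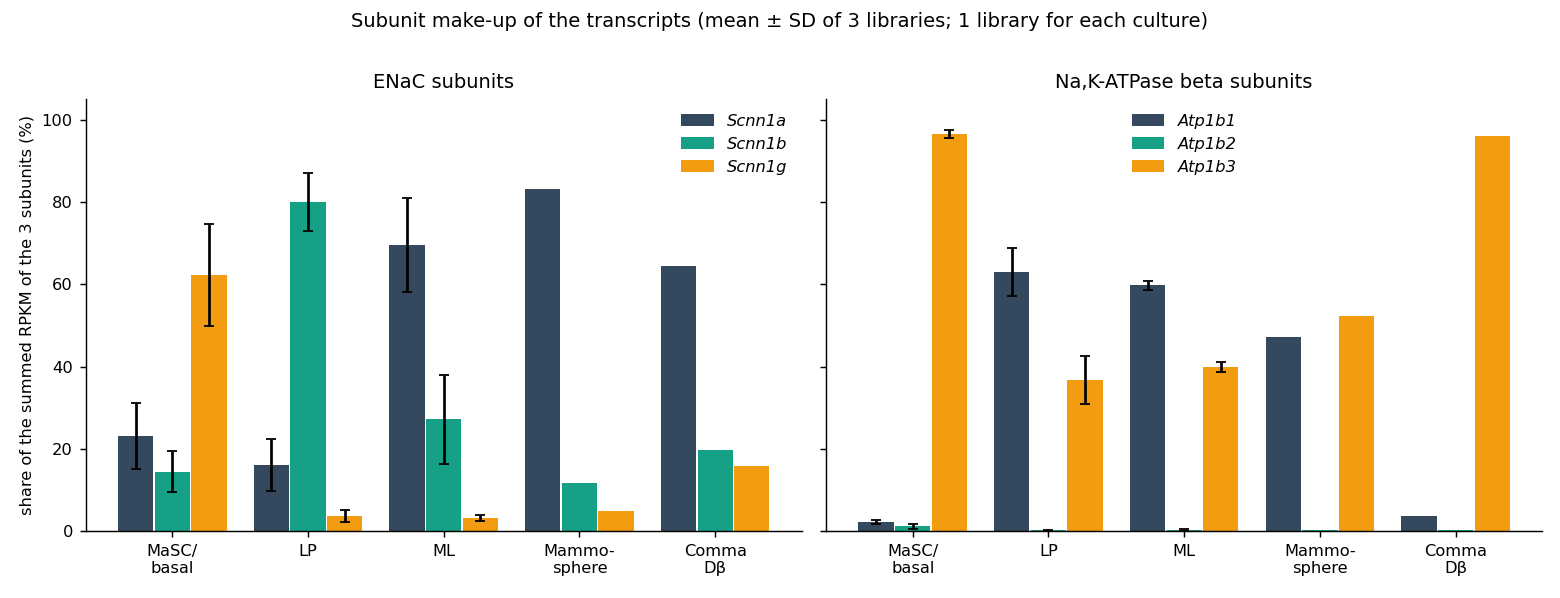
Share of the summed RPKM (%) held by each ENaC subunit gene (left) and each Na,K-ATPase beta subunit gene (right) by sample type, as mean ± SD of 3 libraries, with 1 library for each culture and no error there. The leading ENaC gene is Scnn1g in MaSC/basal cells, Scnn1b in LP and Scnn1a in ML, and Atp1b1 goes from 2.26% of beta subunit RPKM in MaSC/basal cells to 63.0% in LP and 59.7% in ML.

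Kcnn4 encodes KCa3.1, the calcium-activated potassium channel of intermediate conductance, whose opening in secretory epithelia supports chloride exit. It stood at 2.56, 2.19 and 3.47 CPM in MaSC/basal cells, at 113, 88.4 and 74.8 CPM in LP cells, and at 40.1, 72.2 and 21.5 CPM in ML cells. The LP range began at 74.8 CPM, just above the highest ML library, replicate 2 at 72.2 CPM. Kcnn4 rose in LP by 5.07 ± 0.44 (33.5-fold, adjusted p = 6.65e-06) and in ML by 4.03 ± 0.42 (16.3-fold, adjusted p = 2.02e-05) on the log2 scale. LP and ML differed by 1.04 ± 0.37 (adjusted p = 0.0547), which was not called. With the library batch as a replicate block the difference was called (1.18, adjusted p = 0.0146), as it was without ML replicate 2 (1.57, adjusted p = 0.00470), and over all alternatives the adjusted p ran from 0.00470 to 0.156. Kcnn4 was also high in both cultures, at 89.7 CPM in mammospheres (32.7-fold over the MaSC/basal mean) and 42.2 CPM in Comma Dβ cells (15.4-fold).

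Cftr, the apical chloride channel mutated in cystic fibrosis, was barely detected. It had 19, 17 and 15 reads (0.322, 0.339 and 0.283 CPM) in MaSC/basal cells, 3, 1 and 1 reads in LP cells and 3, 10 and 4 reads in ML cells, 73 reads over the 9 sorted libraries in all. All 3 MaSC/basal libraries were above all luminal libraries, of which the highest was at 0.182 CPM. The summed reads gave a MaSC/basal level 6.32 times that of LP (95% exact interval 2.54 to 20.3) and 2.45 times that of ML (1.39 to 4.53), where the intervals cover counting error only. Cftr stayed under the filter of 0.5 CPM in 3 libraries and was not tested there. When the filter was relaxed to edgeR's filterByExpr, it was called lower in LP than in MaSC/basal cells (log2 fold change -2.51, adjusted p = 0.00540, and 0.00682 without any filter) but not in ML (-1.25, adjusted p = 0.0558). Mammospheres held 11 reads and Comma Dβ cells 14 (0.248 and 0.477 CPM).

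Atp1b1 encodes the beta1 subunit of the Na,K-ATPase, the basolateral pump that powers the other transporters. Its level was 8.23, 11.1 and 7.24 CPM in MaSC/basal cells, 199, 197 and 153 CPM in LP cells, and 137, 185 and 131 CPM in ML cells. Both luminal populations lay far above MaSC/basal cells, and they overlapped each other. It rose in LP by 4.37 ± 0.23 (20.6-fold, adjusted p = 4.16e-07) and in ML by 4.09 ± 0.23 (17.1-fold, adjusted p = 4.02e-07) on the log2 scale, whereas LP and ML differed by 0.27 ± 0.20 (adjusted p = 0.319). The mammosphere library was the highest of all 11 at 280.0 CPM, 31.6-fold over the MaSC/basal mean, and Comma Dβ cells at 7.49 CPM lay inside the MaSC/basal range.

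Another beta subunit of the pump fell instead. Atp1b3, the beta3 subunit, fell from 286 ± 22.9 CPM to 82.0 ± 24.6 CPM in LP (-1.80, adjusted p = 9.78e-05) and 77.0 ± 18.8 CPM in ML (-1.89, adjusted p = 6.43e-05). Of the RPKM of the 3 beta subunits, Atp1b1 thus held 2.26% ± 0.44 in MaSC/basal cells, 63.0% ± 5.91 in LP cells and 59.7% ± 1.11 in ML cells, and Atp1b3 held 96.5%, 36.8% and 39.9%. Mammospheres were near equal, with 47.3% Atp1b1 and 52.4% Atp1b3, while Comma Dβ cells held 96.0% Atp1b3. Fxyd2, which encodes the gamma modulator of the pump, was higher in ML than in LP (52.9 ± 26.1 against 4.12 ± 4.04 CPM, LP over ML log2 fold change -3.75, adjusted p = 0.00293).

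Atp2b2 encodes PMCA2, the plasma membrane calcium pump known for carrying calcium into milk during lactation, and these virgin glands held few reads of it. There were 4, 6 and 8 reads in MaSC/basal cells, 25, 41 and 6 in LP cells, and 3, 23 and 4 in ML cells (0.0679 to 0.151, 0.320 to 0.882 and 0.0849 to 0.306 CPM). LP lay above the other populations, by a narrow margin over ML, since LP replicate 3 was at 0.320 CPM and ML replicate 2 at 0.306 CPM. The log2 fold change was 2.57 ± 0.54 for LP over MaSC/basal (adjusted p = 0.00233), 0.86 ± 0.58 for ML over MaSC/basal (adjusted p = 0.225) and 1.71 ± 0.52 for LP over ML (adjusted p = 0.0311). From the summed reads, LP was 6.45 times MaSC/basal (95% exact interval 3.81 to 11.5, counting error only). The LP and ML difference was no longer called without ML replicate 1 (1.37, adjusted p = 0.0945) or ML replicate 3 (1.65, adjusted p = 0.0702), reached 2.40 without ML replicate 2 (adjusted p = 0.0189), and without LP replicate 1 or LP replicate 2 the gene fell under the filter. Mammospheres gave the highest value, 100 reads or 2.25 CPM, and Comma Dβ cells had 0 reads, where 3 reads would be 0.102 CPM. Atp2b2 was at most 0.641% of the RPKM of the 4 plasma membrane calcium pumps in any sample type, and Atp2b1 held 85.4% in MaSC/basal cells, 99.0% in LP cells and 95.2% in ML cells.

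LP and ML libraries could be compared within each of the 3 batches, with 1 library of each per batch. For Slc12a2, Aqp5 and Scnn1a, ML was higher in 3 of 3 batches, with LP minus ML from -3.06 to -1.83, from -1.18 to -1.04 and from -2.53 to -1.71 on the log2 CPM scale, and it was higher in 3 of 3 for Aqp3 too (-1.25 to -0.20), which was not called. LP was higher in 3 of 3 batches for Scnn1b (by 1.02 to 2.09), Kcnn4 (by 0.29 to 1.80) and Atp2b2 (by 0.68 to 2.82), and by less for Atp1b1 (by 0.09 to 0.53), which was not called. The LP excess of Scnn1b and Kcnn4 was smallest in batch 2, the batch of the ML library with the most LP markers. Scnn1g changed direction between batches, from -0.87 in batch 2 to 1.10 in batch 3. Against MaSC/basal cells, batches 1 and 2 both gave higher values in LP and ML for the 6 genes called in both luminal populations, and batch 3 held no MaSC/basal library.

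**Figure D4:**
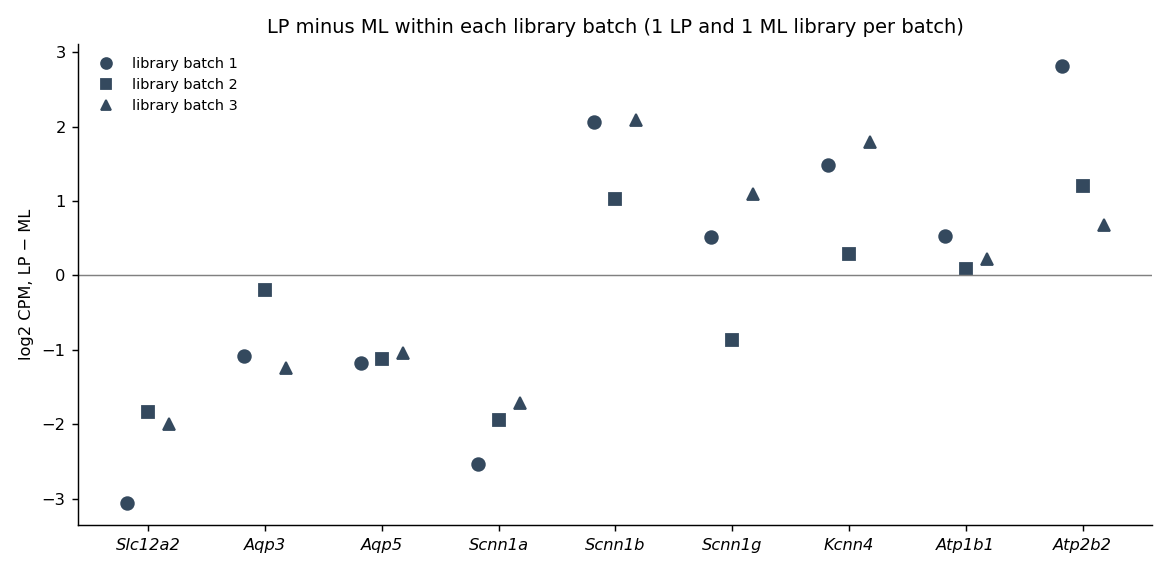
Difference of log2 CPM between the LP and the ML library of the same batch, for the 9 members tested, with the symbol giving the batch. Slc12a2, Aqp3, Aqp5 and Scnn1a lie below 0 and Scnn1b, Kcnn4, Atp1b1 and Atp2b2 above 0 in 3 of 3 batches, with batch 2 nearest to 0 for Scnn1b (1.02) and Kcnn4 (0.29).

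Compared per kilobase of exon, Slc12a2 and Aqp5 were the most abundant members in ML, with mean RPKM of 558 ± 118 (SD, n = 3) and 139 ± 12.6. Aqp3 followed at 103 ± 14.9 RPKM, then Scnn1a at 70.7 ± 7.88 and Atp1b1 at 62.5 ± 12.3 RPKM, and these last overlapped each other within 1 SD. LP cells were led by Slc12a2 (116 ± 39.5 RPKM), Scnn1b (88.0 ± 10.8), Atp1b1 (75.5 ± 10.7), Aqp5 (64.4 ± 6.55) and Aqp3 (62.4 ± 35.2), each of which overlapped the next within 1 SD. MaSC/basal cells were led by Aqp3 (53.5 ± 48.7 RPKM) and Slc12a2 (29.6 ± 0.73), with every other member at 6.80 RPKM or less. There Aqp3 stood at 34.5, 17.2 and 109 RPKM in replicates 1, 2 and 3, and in replicate 2 it lay below Slc12a2 (29.0 RPKM). Cftr and Atp2b2 had mean RPKM of at most 0.0499 and 0.0931 in the sorted populations.

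The cultures gave different pictures, each from 1 library and without a test. Mammospheres were grown from MaSC/basal cells. Above the range of the 3 MaSC/basal libraries lay Kcnn4 (32.7-fold over their mean), Atp1b1 (31.6-fold), Aqp5 (31.2-fold), Atp2b2 (20-fold), Scnn1a (12-fold), Scnn1b (2.80-fold) and Slc12a2 (1.42-fold). Aqp3 (6.72-fold lower), Scnn1g (4.09-fold lower) and Cftr were below that range. The share of all genes outside that range was not counted, so no background stands beside these positions. Mammosphere levels of Kcnn4 lay inside the LP range, and those of Scnn1a, Atp1b1, Atp2b2 and Cftr (11 reads) above it. Slc12a2, Aqp3, Aqp5 and Scnn1g lay below the LP range, and Scnn1b, at 9.61 CPM, far below it. The same library held 3412 CPM of the 6 basal markers, 820.4 CPM of the 6 LP markers, 117 CPM of the 6 ML markers and 1730.4 CPM of the 5 fibroblast markers. Its 5 luminal markers summed to 3162 CPM (1402 to 1692 CPM in MaSC/basal cells) and its 5 milk genes to 1396 CPM (100.04 to 109 CPM). It also held 84.1 CPM of the 5 skeletal muscle markers, against at most 6.70 CPM in any other library. The part of these cells in the members' values was not tested.

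In Comma Dβ cells, Aqp5 (15.6-fold) and Kcnn4 (15.4-fold) were well above the MaSC/basal range and Cftr was slightly above it with 14 reads. Slc12a2, Aqp3, Scnn1a (6.31-fold lower), Scnn1b (12.6-fold lower, 8 reads) and Scnn1g (74.1-fold lower, 8 reads) lay below that range, Atp1b1 lay inside it, and Atp2b2 was not detected at this depth. The line held 1521 CPM of the 6 basal markers, 211 CPM of the 5 luminal markers and 2045 CPM of the 5 fibroblast markers. It differs from the sorted cells also in strain, reproductive stage and culture, which cannot be told apart with 1 library.

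Other transport genes were called in both directions. Of 97 further genes in 7 lists of transport genes, 78 were tested: 34 rose and 21 fell in LP over MaSC/basal cells (43.6% and 26.9%), 34 rose and 25 fell in ML over MaSC/basal cells (43.6% and 32.1%), and 15 were higher in LP and 17 in ML (19.2% and 21.8%). Over all genes those shares were 28.0% and 29.4%, 29.7% and 28.9%, and 14.3% and 17.5%, so that the shares that fell in LP or ML lay near the background, and the counts of the single lists are read against the same shares. Their median log2 fold changes were 0.31, 0.14 and 0.11. The ENaC regulators were the list with the most luminal calls, with 8 of 11 higher and 0 lower in LP, and 8 higher and 1 lower in ML than in MaSC/basal cells. Prss8, a serine protease that cleaves and activates ENaC, averaged 4.30 ± 1.08 CPM over the MaSC/basal libraries, 68.2 ± 27.5 CPM over LP and 58.5 ± 13.2 CPM over ML, and rose in LP (3.98, adjusted p = 7.02e-06) and in ML (3.76, adjusted p = 8.56e-06). Tmprss4, another membrane serine protease, rose by 4.67 in LP (adjusted p = 5.22e-06) and by 6.84 in ML (adjusted p = 6.05e-07), and was higher in ML than in LP (29.4 against 6.53 CPM, adjusted p = 0.00131). Nedd4l, the ubiquitin ligase that removes ENaC from the membrane, rose as well, from 54.2 ± 8.55 CPM to 438 ± 53.2 CPM in LP (adjusted p = 1.94e-06) and 249.8 ± 59.9 CPM in ML (adjusted p = 9.98e-06). The list thus holds genes that act on the channel in opposite directions. Spint1, also on this list, averaged 35.9 ± 6.93 CPM over the MaSC/basal libraries, 197 ± 11.8 CPM over LP and 269 ± 26.7 CPM over ML. It rose in LP (2.45, adjusted p = 1.29e-06) and in ML (2.90, adjusted p = 4.78e-07). Sgk1, the kinase that restrains NEDD4L, was high in all sorted cells, at 1068 ± 179, 1361 ± 420.4 and 1185 ± 357 CPM, and was not called in any comparison (adjusted p = 0.317, 0.672 and 0.625).

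**Figure D5:**
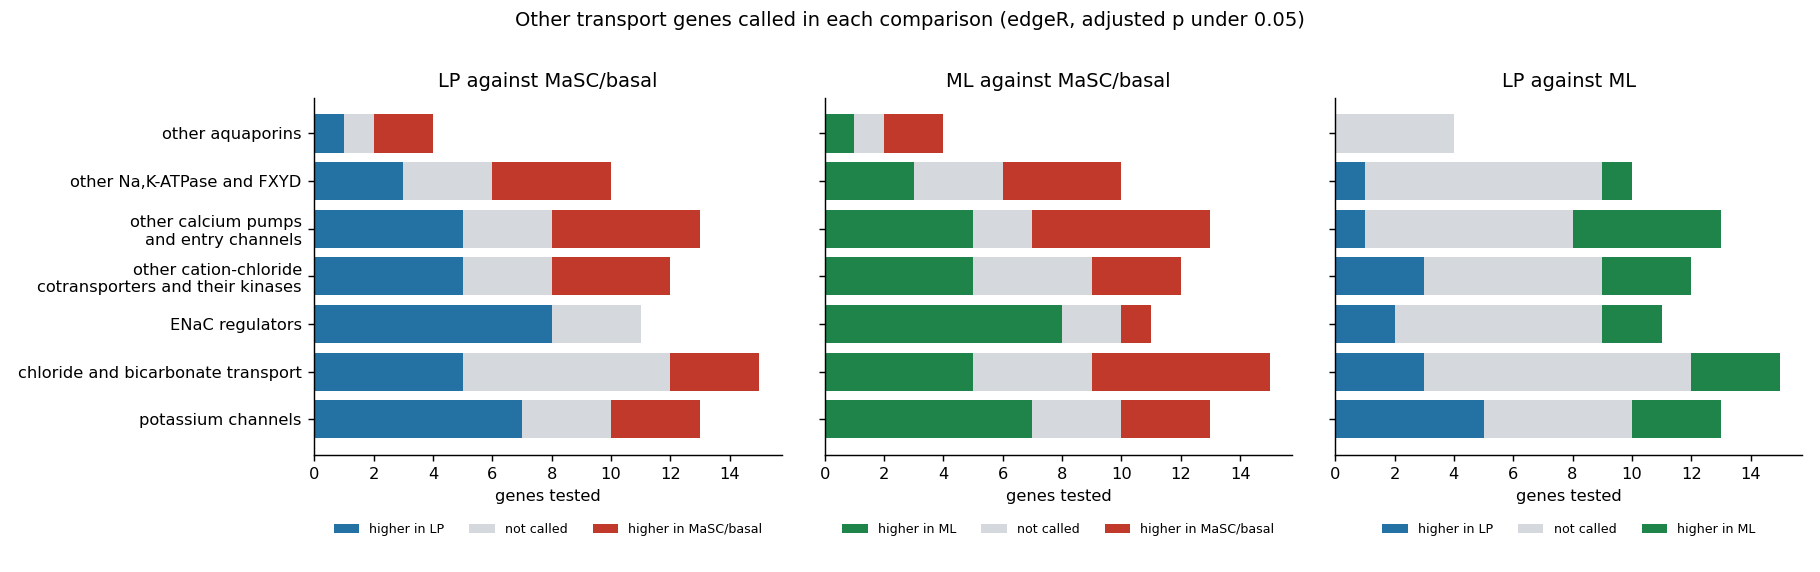
Number of tested genes of 7 lists of other transport genes that edgeR called higher in the first population, higher in the second, or not called, in the 3 comparisons. In LP against MaSC/basal the bar of the ENaC regulators holds 8 genes higher in LP and 0 higher in MaSC/basal, while the other lists hold calls in both directions.

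The kinases that switch NKCC1 on were also measured. Stk39, which encodes SPAK, averaged 116 ± 11.9 CPM over the MaSC/basal libraries, 202 ± 2.10 CPM over LP and 75.2 ± 33.8 CPM over ML, and rose in LP over MaSC/basal cells (0.80, adjusted p = 0.0214), as Slc12a2 did, but was higher in LP than in ML (1.42, adjusted p = 0.00346), where Slc12a2 was lower. Oxsr1 ranged between 62.0 and 83.9 CPM in group means and was called in LP over MaSC/basal alone (0.44, adjusted p = 0.0273). Wnk4, a kinase upstream of SPAK, averaged 3.86 ± 0.45, 5.24 ± 1.39 and 18.3 ± 4.46 CPM from MaSC/basal through LP to ML, with ML highest as for Slc12a2 (ML over MaSC/basal 2.24, adjusted p = 3.44e-05, LP over ML -1.81, adjusted p = 0.00113). Slc12a4, the potassium-chloride cotransporter KCC1, fell from 87.0 ± 15.1 CPM (MaSC/basal) to 3.82 ± 1.61 CPM in LP (-4.49, adjusted p = 2.51e-06) and 5.38 ± 1.37 CPM in ML (-4.02, adjusted p = 3.47e-06). Of the 12 tested cation-chloride cotransporters and kinases, 5 rose and 4 fell in LP, and 5 rose and 3 fell in ML.

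Potassium channels went both ways. Of 13 tested, 7 rose and 3 fell in LP and in ML over MaSC/basal cells, and 5 were higher in LP and 3 in ML (53.8% higher and 23.1% lower in both luminal populations, beside 28.0% and 29.4% of all genes in LP and 29.7% and 28.9% in ML). Kcne2, a small accessory subunit, was at 0.04 ± 0.02 CPM in MaSC/basal cells, and rose to 0.50 ± 0.26 CPM in LP (adjusted p = 0.00681) and 4.38 ± 3.14 CPM in ML (adjusted p = 9.23e-05). Kcnma1 and Kcnmb1, the pore and beta1 subunits of the large-conductance calcium-activated channel of smooth muscle, fell from 20.1 ± 4.85 CPM and 39.3 ± 8.94 CPM (MaSC/basal) to 0.38 ± 0.12 CPM (adjusted p = 7.28e-07) and 0.41 ± 0.19 CPM (adjusted p = 4.58e-07) in LP, opposite in direction to Kcnn4. Kcnk2, a background potassium channel, fell from 10.0 ± 0.81 CPM to 0.24 ± 0.11 CPM in LP (adjusted p = 1.09e-06). Chloride and bicarbonate transporters gave 5 higher and 3 lower of 15 in LP, and 5 higher and 6 lower in ML, or 33.3% higher and 20% lower in LP and 33.3% and 40% in ML, beside the same shares of all genes. Clca1, of a family of regulators of calcium-activated chloride channels, averaged 0.17 ± 0.02 CPM over the MaSC/basal libraries and rose to 2.77 ± 0.42 CPM in LP (4.03, adjusted p = 6.32e-05) and 21.1 ± 13.3 CPM in ML (6.97, adjusted p = 2.06e-06). Clcn3, a chloride-proton exchanger, rose from 12.7 ± 1.75 CPM to 157 ± 14.4 CPM in LP (3.63, adjusted p = 1.74e-07) and 156 ± 17.1 CPM in ML (3.61, adjusted p = 1.34e-07). Slc26a9, a chloride transporter of airway and stomach, had a mean of 5.08 CPM in MaSC/basal cells and of 34.7 ± 18.9 CPM in LP (2.78, adjusted p = 0.00611), far above the level of Cftr in each. It was not called in ML over MaSC/basal cells (12.7 ± 11.9 CPM in ML, adjusted p = 0.106) or between LP and ML (adjusted p = 0.122).

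Calcium transport genes gave 5 higher and 5 lower of 13 in LP (38.5% each, beside 28.0% and 29.4% of all genes), and 5 higher and 6 lower in ML (38.5% and 46.2%, beside 29.7% and 28.9%). Atp2c2, a calcium pump of the secretory pathway, rose from 22.0 ± 7.95 CPM (MaSC/basal) to 134 ± 41.2 CPM in LP (2.61, adjusted p = 4.66e-05) and 77.5 ± 13.2 CPM in ML (1.82, adjusted p = 4.04e-04). Atp2b4, a relative of Atp2b2, fell from 47.0 ± 14.1 CPM to 3.74 ± 0.68 CPM in LP (-3.66, adjusted p = 7.19e-05), and Trpv6, a calcium entry channel, fell from 25.9 ± 7.93 CPM to 1.03 ± 0.22 CPM (-4.62, adjusted p = 1.20e-06). Of the other aquaporins 4 of 10 were tested, with 1 higher and 2 lower in both luminal populations. Aqp9, a channel for water and glycerol, fell from 16.4 ± 2.92 CPM (MaSC/basal) to 0.36 ± 0.19 CPM in LP (-5.36, adjusted p = 1.27e-06) and 0.22 ± 0.06 CPM in ML (-6.09, adjusted p = 6.55e-07). Of 10 tested Na,K-ATPase and FXYD genes, 3 rose and 4 fell in both.

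The genes most like each member were found by the root mean square difference of log2 CPM over the 11 libraries, after centring each gene on its own mean. Slc12a2 lay nearest to Tmed3 (0.25), with group means of 61.0, 202 and 868 CPM from MaSC/basal through LP to ML, and to Reg3b (0.29). Reg3b held few reads, with means of 0.04, 0.24 and 2.16 CPM in the same order. Scnn1b lay nearest to Cel (0.39) and to Atp6v1b1 (0.43), a proton pump subunit with means of 10.8, 1017 and 209 CPM. The nearest to Scnn1a were Rnf208 (0.41) and Gucy2g (0.50), and to Scnn1g Cox7a1 (0.42) and Shroom3 (0.46). Kcnn4 was most like Fyb2 (0.42) and Tlr4 (0.43), Atp1b1 most like Nfe2l3 (0.37) and Npas2 (0.43), and Aqp5 most like BC021767 (0.54) and Nupr1 (0.55). Aqp3 had the most distant nearest genes, Ecscr (0.68) and Trim15 (0.70), and Atp2b2, with its few reads, was nearest to Hlf (0.52) and Duoxa1 (0.57). No member was among the nearest 2 genes of another. Between members the smallest distances were 1.17 for Scnn1a and Atp1b1, 1.18 for Slc12a2 and Scnn1a, and 1.18 for Aqp3 and Scnn1g. These distances describe 11 libraries that share a few sample types and were not tested.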

How the data were processed

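Raw counts per Entrez gene were deposited by the authors, 1 table per library with the same 27179 genes, neither normalized nor filtered, beside a column of exon lengths in bases that is the same in every table. By the study's methods, single-end reads had been aligned to mm10 with Rsubread and assigned with featureCounts. The submitters' processing notes also name CASAVA 1.8.0, edgeR 3.6.2 and limma 3.20.5. The strand setting and the treatment of reads matching several genes are not given in the sources used here, so reads shared with paralogs or antisense genes can have been lost or mixed. Symbols and GRCm38 positions came from RefSeq tables for 25275 genes and from GENCODE for 18.

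Samples were grouped by the labels, and LP and ML replicate numbers coincide with library batches. Nothing in the labels ties libraries to mice, though the study calls the 3 samples per population independent. P-values thus measure the spread between these libraries. All replicate pairs differed by more than counting noise. The members and gene lists were chosen with earlier results of these data known. The count model was edgeR 4.0.16 under R 4.3.3. Genes over 0.5 CPM in at least 3 libraries (15422) were kept, TMM factors computed, and 5 group means fitted to all 11 libraries with the quasi-likelihood test, tested on simulated data first. Benjamini-Hochberg adjusted p-values over all genes were called under 0.05, and SE is the log2 fold change over the square root of F. RPKM is TMM-scaled CPM per kilobase of the deposited exon length. Distances and within-batch differences used log2 CPM with a prior count of 2. Alternatives used limma 3.58.1 and DESeq2 1.42.0. Intervals of reads cover counting error only.

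Named genes were all members and, from each transport list, at most 4 genes with the largest called change, at least 1 CPM in the higher group and no overlap, besides Atp1b3, Sgk1, Nedd4l, Stk39 and Oxsr1, and the 2 nearest genes of each member. 1 of 4 erythroid markers was not matched, and 1 gene under this rule is not reported here.

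Pairing was taken from the library batch in the labels. Libraries of the same batch deviated from their group means with correlations of -0.12 to 0.53 over genes (median 0.24, 9 pairs), against -0.42 to 0.11 (median -0.10, 18 pairs) for libraries of different batches. Deviations from a group's own mean cancel out over its libraries, so the correlations within and between batches are not independent of each other.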

Additional observations from a re-analysis of the deposited data

How the results depend on the processing

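The numbers of members called stayed within 1.5 times of the reported ones under every alternative tried: between 6 and 8 for LP over MaSC/basal, 6 and 7 for ML over MaSC/basal and 4 and 6 for LP against ML. Of 453 refitted values of the 9 tested members, 436 kept their direction and their side of the threshold, 12 passed it anew, 2 no longer passed and 3 changed sign. The 3 sign changes were of Aqp3 in LP against MaSC/basal, which was not called and ran from -0.33 (without LP replicate 2) to 1.26 (without MaSC/basal replicate 3) when single libraries were left out, with -0.02 without MaSC/basal replicate 1 and -0.20 without MaSC/basal replicate 2. The cause was not tested. With the library batch as a replicate block, Kcnn4 was called higher in LP than in ML (1.18, adjusted p = 0.0146), and no other call of a member changed. Kcnn4 was also called there by limma voom (1.12, adjusted p = 0.0328) and DESeq2 (1.07, adjusted p = 0.0175). Scnn1g was called lower in ML than in MaSC/basal cells without MaSC/basal replicate 1 or 2, ML replicate 2 or LP replicate 2, besides the fits named with its values, and its range over alternatives was -1.22 to -0.49. Refits without a library applied the expression filter again. Reads limit Cftr and Atp2b2, with 73 and 120 reads over the 9 sorted libraries, and the cultures have 1 library each. Without TMM factors all mammosphere CPM values were 1.16 times and all detected Comma Dβ values 1.21 times those reported.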
